A study of Mus musculus with 9 samples.

Results

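The 36 genes described here encode lysosomal enzymes and membrane proteins of the mouse. They are a list of gene symbols grouped by their known lysosomal role and chosen with earlier results of these data known: 11 proteases and protease-associated enzymes, 8 glycosidases, 7 lipid-handling proteins and cofactors, 6 membrane proteins and 4 parts of the vacuolar proton pump (V-ATPase). Of the 55487 genes counted, 36 of 36 members were found, and 36 of 36 were among the 14851 genes with enough counts to be tested. Polyadenylated RNA of gastrocnemius, a calf muscle rich in fast fibres, was sequenced from wild-type C57BL/6 mice, which the labels give as male and the study's text as the C57BL/6J substrain. The 4 Control mice walked freely in their cages. The 2 Unloading mice had been held by the tail for 10 days so that the hind limbs bore no weight, a procedure under which limb muscle atrophies. The 3 Reloading mice were sampled 1 day after they were returned to normal cage activity following unloading. The labels number the libraries without naming an animal for each, so the p-values measure the spread between these libraries.

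Lysosomes are the acidic compartments in which cells break down proteins, glycans and lipids delivered by endocytosis and autophagy. Soluble hydrolases are carried there by sorting receptors, the V-ATPase pumps protons in, and heavily glycosylated membrane proteins line the inside of the membrane. Many lysosomal genes share the E-box CACGTG in their promoters, often within the longer CLEAR element (coordinated lysosomal expression and regulation), to which TFEB and its relatives TFE3 and MITF bind. Skeletal muscle fibres use the lysosome for autophagic protein breakdown, and macrophages, which enter loaded or injured muscle, carry many lysosomes.

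The promoters of the members are shown because the E-box is the sequence they are known to share. RefSeq promoters (build GRCm38.p6, 250 bases before to 50 bases after the start) were matched for 31 members, with 34 promoters among them. CACGTG, which reads the same on both strands, was present in 12 of the 34 (35.3%), against 7.15% of all 32851 promoters in the table. The longer word TCACGTG or its reverse complement CACGTGA, which contains the shorter word, was present in 11 of the 34 (32.4%), against 3.77% of all promoters. In the 73 promoters of other lysosomal hydrolases, membrane proteins and V-ATPase subunits, the share with CACGTG was 13.7%. Stretches from 5 member promoters are printed below, 5′ to 3′ on the strand of the gene, with CACGTG in capitals. They were taken from members that differed in their response. Lamp1 (chr8:13159081-13159160, plus strand) holds 4 copies within the 80 bases before its start, and Mcoln1 (chr8:3500419-3500456, plus strand), Ctsl (chr13:64370736-64370765, minus strand), Lgmn (chr12:102439123-102439162, minus strand, before the downstream of its RefSeq starts) and Atp6v1a (chr16:44139370-44139409, minus strand) hold 1 copy in the stretch shown. The whole Mcoln1 promoter holds 2 copies.
Lamp1: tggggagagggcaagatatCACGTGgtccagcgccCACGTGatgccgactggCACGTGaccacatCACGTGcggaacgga
Mcoln1: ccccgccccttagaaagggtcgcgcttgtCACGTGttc
Ctsl: gttagaagcCACGTGctgatctaaattcta
Lgmn: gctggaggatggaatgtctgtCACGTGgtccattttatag
Atp6v1a: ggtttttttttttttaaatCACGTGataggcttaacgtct

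Library totals ranged from 9252443 to 19612101 read pairs in genes, and the same-group libraries correlated with r between 0.981 and 0.99 across genes. Muscle fibre genes were abundant in every library, with 12 markers summing to 191821 to 209340 counts scaled to a common library size (CPM, with 1e+06 read pairs as the common size) in Control, 197306 to 204742 in Unloading and 138019 to 151933 in Reloading. TMM normalization factors (trimmed mean of M-values, which match the bulk of genes between libraries) were 0.928 to 0.960 in Control and Unloading and 1.11 to 1.13 in Reloading. When libraries were scaled by their totals instead, the median log2 fold change of all genes moved from 0.03 to 0.27 for Reloading against Unloading and from 0.01 to 0.25 for Reloading against Control, and the share of called genes that were higher moved from 49.3% to 82.7% and from 50.9% to 80.2%. Directions in Reloading are therefore given relative to the TMM scale. The labels give male mice and the methods of the study female mice for the procedure. Xist had 0 to 5 counts and the Y-linked gene Ddx3y at least 1013 in every library, which goes with the male mice of the labels. Krt2, a skin keratin, had 1086 counts in Control 2, 502 in Reloading 1 and at most 3 elsewhere, and counts of members without these libraries are given where they differ.

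Levels of the members are compared per kilobase of exon (CPM per kb). In Control the members spanned from 0.670 CPM per kb for Glb1, the lysosomal β-galactosidase, to 278 ± 18.5 (SD, n = 4) for Psap, the precursor of the saposins that help degrade sphingolipids. The median member had 6.74 CPM per kb and the median tested gene 2.51. Psap was followed by Laptm4a, a small transmembrane protein of late endosomes, at 150 ± 3.31 CPM per kb, Lamp1, a major glycoprotein of the lysosomal membrane, at 142 ± 5.09, Ctsd, the aspartyl protease cathepsin D, at 102 ± 7.23, and Gaa, the acid α-glucosidase that degrades lysosomal glycogen and is deficient in Pompe disease, at 54.3 ± 3.04. The Control libraries of Laptm4a and Lamp1 overlapped on this scale, and the other neighbours among these 5 did not. Ctsd shares 34.4% of its exon bases with another annotated gene, where reads may go uncounted, so its place in this order is uncertain. Together these 5 genes held 71.6% of the members' summed CPM per kb in Control.

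On the TMM scale the summed level of the 36 members was similar in the 3 groups, and the ranges overlapped. It was 3106 to 3296 CPM in Control, 3075 and 3326 in Unloading and 3094 to 3222 in Reloading. This depends on the scaling, since the higher TMM factors of Reloading lower its sums relative to library totals. The sums by role moved in different directions on the TMM scale. They depend on the scaling in the same way, so a lower sum in Reloading cannot be taken to hold with library totals. Glycosidases summed to 324 to 359 CPM in Control, 327 and 365 in Unloading and 401 to 439 in Reloading, and the V-ATPase members to 182 to 194, 204 and 196, and 244 to 263 CPM. Lipid proteins and cofactors summed to 876 to 986 CPM in Control, 794 and 968 in Unloading and 722 to 825 in Reloading. The membrane proteins stood at 869 to 889, 935 and 928, and 799 to 851 CPM. The plot of levels by library shows the spread of each member.

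**Figure D1:**
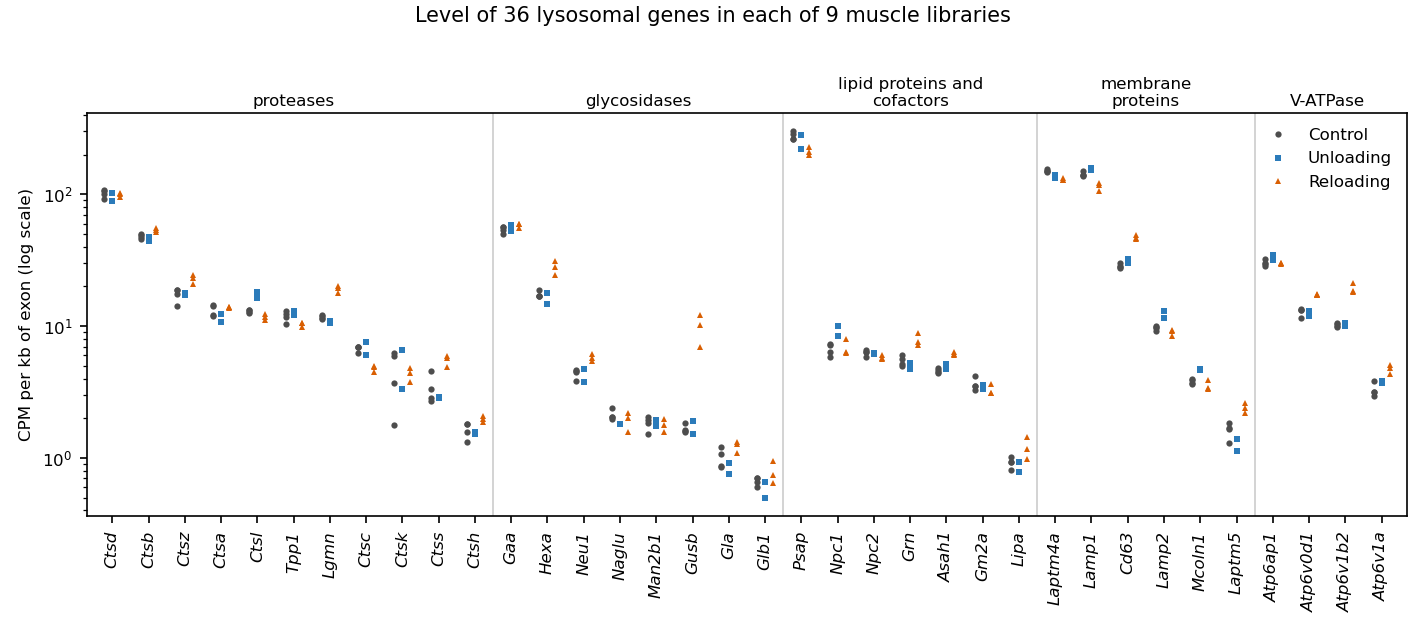
Level of each of the 36 members in CPM per kb of exon (vertical axis, log scale) in the 4 Control, 2 Unloading and 3 Reloading libraries, 1 point a library, ordered by role and by Control level. Psap stands highest at 278 CPM per kb in Control and Glb1 lowest at 0.670, and the 3 Reloading points of Gusb lie above those of the other groups.

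The comparison of Unloading with Control asks which members differ after 10 days without weight bearing. Ctsl, Npc1, Lamp2 and Mcoln1 were higher in Unloading by 1.23- to 1.38-fold, and no member was lower. Among all tested genes 4.40% were called higher and 5.50% lower (edgeR quasi-likelihood test, adjusted p under 0.05), against 4 of 36 members (11.1%) and 0 of 36. At an unadjusted p under 0.05, 4 members were higher and 1 was lower. The share of all tested genes at that looser threshold was not counted, so these counts have no background beside them. Members had a median log2 fold change of −0.03, and all tested genes −0.004.

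Ctsl encodes cathepsin L, a cysteine endopeptidase whose RNA is a known marker of muscle atrophy. It had 82.6, 82.3, 85.4 and 86.3 CPM in the 4 Control libraries, 118 and 106 in the 2 Unloading libraries, and 76.1, 71.9 and 79.7 in the 3 Reloading libraries. Both Unloading libraries stood above every other library, and the Reloading libraries stood just below Control. Its log2 fold change was 0.41 ± 0.07 (SE) for Unloading against Control (edgeR adjusted p = 0.00377) and −0.56 ± 0.08 for Reloading against Unloading (edgeR adjusted p = 6.17e-05). Npc1, the membrane protein that exports cholesterol from the lysosome, had 71.8, 66.5, 82.9 and 82.1 CPM in Control, 95.6 and 113 in Unloading, and 89.9, 72.1 and 70.9 in Reloading. Unloading did not overlap the other groups, whereas Control and Reloading overlapped. The log2 fold changes of Npc1 were 0.46 ± 0.11 (edgeR adjusted p = 0.0182) and −0.43 ± 0.12 (edgeR adjusted p = 0.00993) in the same comparisons.

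Lamp2, a lysosomal membrane glycoprotein that is needed for autophagosome maturation in muscle and is lost in Danon disease, had 92.4, 87.4, 93.8 and 95.9 CPM in Control. It stood at 124 and 109 CPM in Unloading and at 81.0, 90.0 and 87.9 in Reloading. The Unloading libraries were again the highest, and the other groups overlapped. The log2 fold change of Lamp2 was 0.34 ± 0.08 for Unloading against Control (edgeR adjusted p = 0.0134) and −0.43 ± 0.08 for Reloading against Unloading (edgeR adjusted p = 0.000725). Mcoln1, the lysosomal calcium channel TRPML1, had 27.6, 29.5, 30.0 and 27.8 CPM in Control, 35.6 and 35.2 in Unloading, and 29.4, 25.8 and 25.1 in Reloading. The Unloading libraries lay above the rest, and Control and Reloading overlapped. Mcoln1 had log2 fold changes of 0.30 ± 0.09 (edgeR adjusted p = 0.0399) and −0.40 ± 0.09 (edgeR adjusted p = 0.00275).

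These 4 were the only members called in both comparisons, which share the 2 Unloading libraries. None of the 4 was called for Reloading against Control, where the log2 fold changes were −0.15 for Ctsl, 0.03 for Npc1, −0.10 for Lamp2 and −0.11 for Mcoln1. With library totals Npc1 was called higher there (0.27, edgeR adjusted p = 0.0331), and Ctsl, Lamp2 and Mcoln1 were above 0 and not called. Without Unloading 1, no member was called for Unloading against Control (edgeR adjusted p between 0.0647 for Npc1 and 0.255 for Mcoln1, with log2 fold changes of 0.25 to 0.58), and without Unloading 2 Ctsl and Lamp2 were called. The call of Mcoln1 for Unloading against Control was lost in 10 of 15 alternatives, among them those without any single Control or Unloading library. Ctsl shares 26.8% of its exon bases with an opposite-strand gene that had no counts, and Npc1 4.52% with Rmc1, which is transcribed from the opposite strand; counting did not use the strand.

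The other 32 members did not pass the test for Unloading against Control, with log2 fold changes from −0.37 for Laptm5 to 0.21 for Ctsk and Atp6v1a. Ctsk, the collagen-degrading cathepsin K, varied widely within groups, from 2.71 to 9.43 CPM in Control and from 5.08 to 9.93 in Unloading. Its 95% confidence interval for the log2 fold change ran from −0.52 to 0.94, so a change of either sign was not resolved. For Ctsd, Ctsb and Gaa, which are abundant, the intervals were narrow, at −0.27 to 0.08, −0.22 to 0.08 and −0.13 to 0.20.

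**Figure D2:**
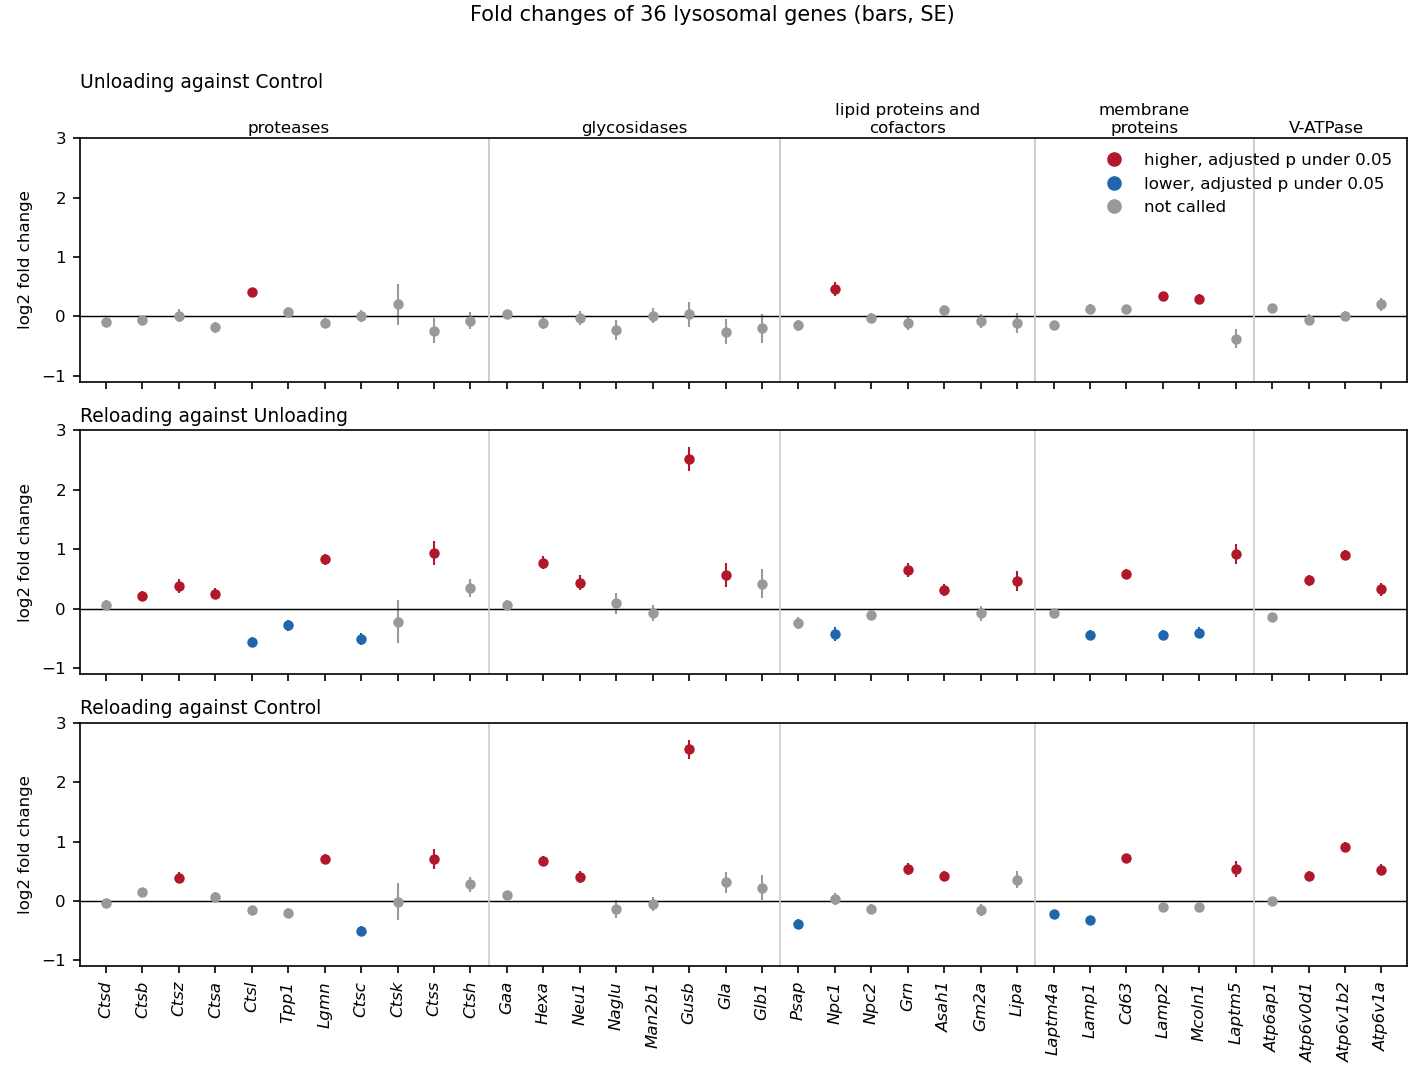
Log2 fold change of each member with its SE in Unloading against Control (top), Reloading against Unloading (middle) and Reloading against Control (bottom), from edgeR. Red and blue points are higher and lower at adjusted p under 0.05 and grey points are not called; 4 members are red at the top, 17 red and 7 blue in the middle, and 13 red and 4 blue at the bottom.

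The comparison of Reloading with Unloading follows the members through the first day of renewed weight bearing. In Reloading 17 of 36 members were higher (47.2%, against 18.5% of all tested genes), 7 were lower (19.4%, against 19.0%) and 12 were not called. The share lower was close to that of all genes. The median log2 fold change was 0.23 for the members and 0.03 for all tested genes. In each of the 24 called members the CPM ranges of the groups did not overlap. The share of all called genes with this trait was not counted, so it cannot be read as particular to the members. By role, 5 of 11 proteases rose and 3 fell, 4 of 8 glycosidases rose and none fell, 3 of 7 lipid proteins and cofactors rose and 1 fell, 2 of 6 membrane proteins rose and 3 fell, and 3 of 4 V-ATPase members rose. Refits with libraries left out were read for the lists alone, and the share of all tested genes called in them was not counted. A smaller count of members in them cannot be read as particular to the members. The count of higher members was 11 without Reloading 1 (and also without both libraries that held Krt2), 10 without Unloading 1 and 11 without Unloading 2, and the count of lower members was 8 without the Krt2 libraries. The calls that were lost when 1 of these was left out were mostly those of Ctsa, Ctsb, Ctsz, Gla, Lipa and Atp6v1a, with Tpp1 and Neu1 also lost without Unloading 1 and Npc1 and Asah1 without Unloading 2.

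Gusb, the lysosomal β-glucuronidase, whose RNA is often used as a reference in quantitative PCR, rose most. It had 7.43, 8.36, 7.35 and 7.11 CPM in Control, 8.74 and 6.93 in Unloading, and 55.7, 46.5 and 31.8 in Reloading. The lowest Reloading library stood well above the highest of the other 6, and Control and Unloading overlapped. The raw counts behind these values were 66 to 103 read pairs in Control, 117 and 127 in Unloading and 481 to 692 in Reloading. The log2 fold change of Gusb was 2.52 ± 0.20 for Reloading against Unloading, or 5.73-fold (edgeR adjusted p = 4.04e-07), and 2.56 ± 0.16 for Reloading against Control (edgeR adjusted p = 1.88e-08). Under the alternatives tried, the value against Unloading lay between 2.33 and 2.77. The gene lies at chr5:129989011-130003049 on the minus strand of GRCm38, and no other annotated gene shares its exon bases. Its exon counts do not say which part of the transcript rose.

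Among the proteases, Ctss, the cathepsin S of antigen-presenting cells, had 4.50, 3.89, 6.21 and 3.68 CPM in Control, 3.96 and 3.87 in Unloading and 8.13, 7.80 and 6.68 in Reloading. The Reloading libraries were the highest, and Control 3 stood nearest to them. Its log2 fold change against Unloading was 0.94 ± 0.20, or 1.92-fold (edgeR adjusted p = 0.00205), on counts of 40 to 108 read pairs. Lgmn, the asparaginyl endopeptidase legumain that activates other cathepsins, went from 24.6 to 25.6 CPM in Unloading to 41.5 to 47.1 in Reloading, a log2 fold change of 0.83 ± 0.09. Ctsz, Ctsa and Ctsb, which encode the carboxypeptidase cathepsin X, protective protein/cathepsin A and cathepsin B, rose by 0.38, 0.25 and 0.22 on the log2 scale, and each of these calls was lost under several alternatives. Ctsb overlaps the opposite-strand gene Fdft1 over 12.8% of its exon bases, and Ctsa overlaps the opposite-strand genes Pltp and Neurl2 over 10.5% and 6.87%. Hexa and Lamp1 share 12.8% and 9.31% of theirs with other annotated genes, so reads in those bases cannot be assigned with certainty. Ctsd shares 34.4% with a gene that had no counts, and reads in those bases may have gone uncounted.

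Of the proteases that fell besides Ctsl, Ctsc encodes cathepsin C, which activates granule serine proteases of immune cells. Its values were 40.5, 36.2, 40.3 and 40.6 CPM in Control, 35.1 and 43.9 in Unloading, and 28.9, 28.7 and 26.0 in Reloading. The 3 Reloading libraries were the lowest of the 9. The log2 fold change of Ctsc was −0.51 ± 0.10 against Unloading (edgeR adjusted p = 0.00115) and −0.50 ± 0.09 against Control (edgeR adjusted p = 0.000295). Tpp1, tripeptidyl peptidase 1, fell by 0.28 on the log2 scale against Unloading (edgeR adjusted p = 0.0302). Ctsd, Ctsh and Ctsk were not called, with log2 fold changes of 0.06, 0.35 and −0.22.

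Besides Gusb, the glycosidases Hexa, Gla and Neu1 rose. Hexa, the α subunit of β-hexosaminidase, which degrades GM2 ganglioside, went from 29.1 and 35.4 CPM in Unloading to 49.0, 61.8 and 55.7 in Reloading, a log2 fold change of 0.78 ± 0.11 (edgeR adjusted p = 6.47e-05). Neu1, the lysosomal sialidase, rose by 0.44 ± 0.12, and Gla, α-galactosidase A, by 0.57 ± 0.21 on counts of 33 to 65 read pairs. Gaa, Glb1, Man2b1 and Naglu were not called. The interval for Gaa, from −0.11 to 0.23, was much narrower than that for Glb1, from −0.11 to 0.96.

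In the lipid and cofactor group, Grn, the precursor of the granulins, went from 16.5 and 18.3 CPM to 31.1, 26.3 and 25.2, a log2 fold change of 0.65 ± 0.12 (edgeR adjusted p = 0.000574). Lipa, the acid lipase of the lysosome, and Asah1, acid ceramidase, rose by 0.47 and 0.32 on the log2 scale. Npc2, the soluble cholesterol-binding partner of Npc1, had a log2 fold change of −0.10 and was not called, nor were Psap and the GM2 activator Gm2a at −0.23 and −0.08.

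Among membrane proteins, Laptm5, a transmembrane protein of late endosomes in haematopoietic cells, had 6.30, 6.45, 6.99 and 4.97 CPM in Control, 4.26 and 5.24 in Unloading and 9.90, 9.02 and 8.26 in Reloading. All 3 Reloading libraries were above the other 6, and its log2 fold change was 0.92 ± 0.17 against Unloading (edgeR adjusted p = 0.000587). Cd63, a tetraspanin of late endosomes and exosomes, had 102, 105, 110 and 104 CPM in Control, 112 and 119 in Unloading, and 170, 181 and 170 in Reloading. These groups did not overlap. The log2 fold change of Cd63 was 0.59 ± 0.07 against Unloading (edgeR adjusted p = 2.43e-05) and 0.72 ± 0.06 against Control (edgeR adjusted p = 3.38e-07).

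Lamp1 moved the other way, with 401, 377, 375 and 371 CPM in Control, 423 and 411 in Unloading and 282, 316 and 323 in Reloading. Every Reloading library was below the lowest Control library. For Lamp1 the log2 fold change was −0.44 ± 0.08 against Unloading (edgeR adjusted p = 0.000408) and −0.31 ± 0.07 against Control (edgeR adjusted p = 0.00127). Lamp1 and Lamp2, the paired glycoproteins of the lysosomal membrane, thus both fell against Unloading, and Lamp2 was called for Unloading against Control whereas Lamp1 was not, with a log2 fold change of 0.13 ± 0.07. Laptm4a was not called, at −0.08.

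The fall of the 7 members depended on how libraries were scaled. With library totals in place of TMM factors, only Ctsl was still called lower, by 0.31 on the log2 scale (edgeR adjusted p = 0.00432), while Ctsc, Tpp1, Npc1, Lamp1, Lamp2 and Mcoln1 kept their sign and were not called (edgeR adjusted p between 0.0501 and 0.831).

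Of the V-ATPase members, Atp6v1b2, the B subunit of the catalytic head found in most tissues, had 54.7, 53.4, 52.6 and 55.6 CPM in Control, 55.7 and 53.4 in Unloading and 97.5, 112 and 96.3 in Reloading. Control and Unloading were nearly level, and Reloading stood apart from both. The log2 fold change of Atp6v1b2 was 0.90 ± 0.08 against Unloading (edgeR adjusted p = 1.9e-06) and 0.92 ± 0.07 against Control (edgeR adjusted p = 1.19e-07). Atp6v1a, the catalytic A subunit that pairs with it, and Atp6v0d1, a subunit at the junction of the head and the membrane sector, rose by 0.32 and 0.48 on the log2 scale. Atp6ap1, an accessory subunit, was not called, with −0.14 and an interval from −0.30 to 0.02.

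**Figure D3:**
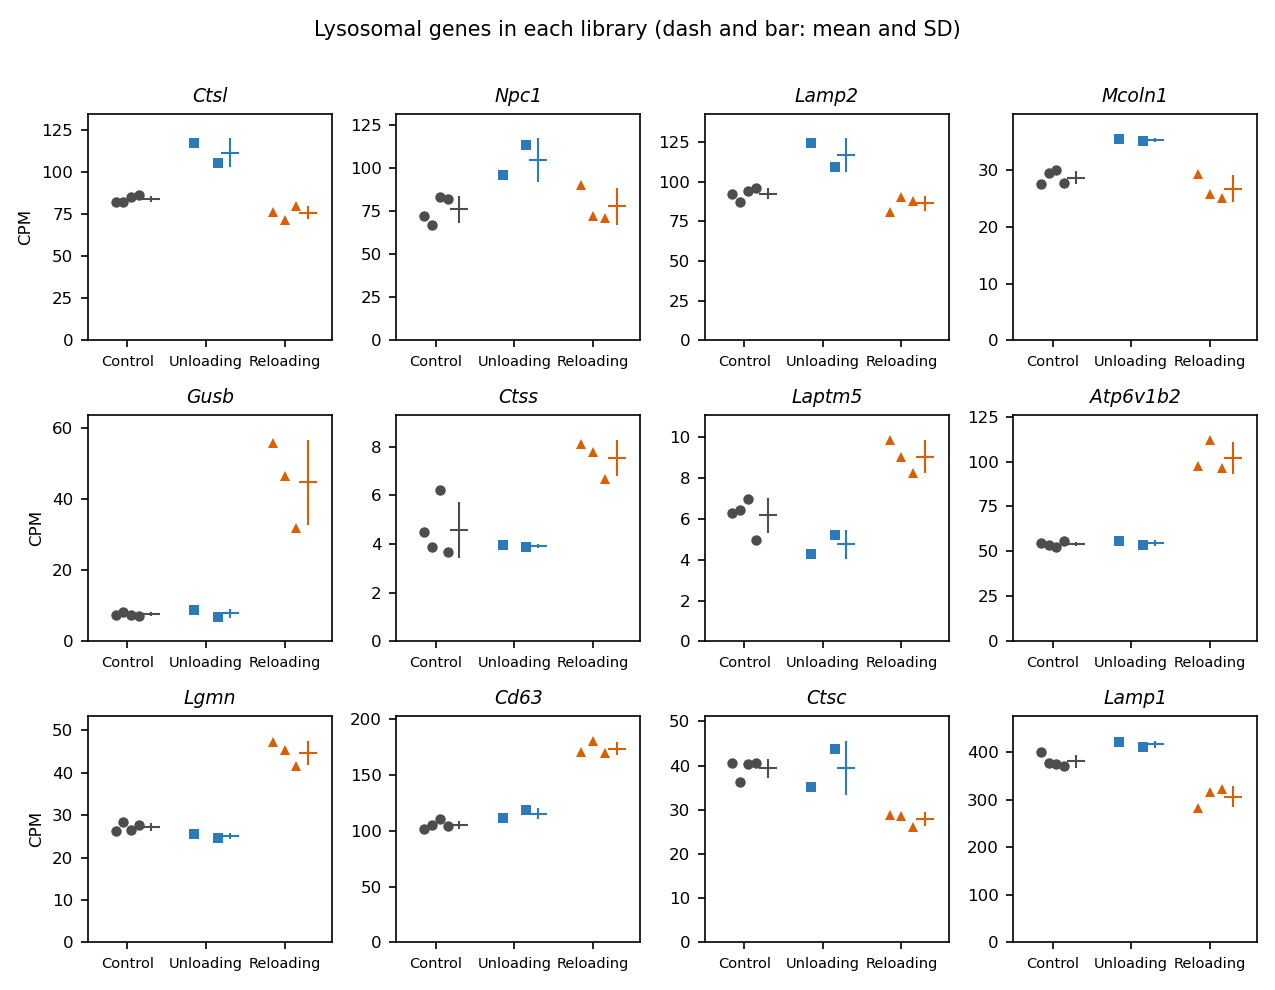
CPM of 12 members (vertical axis, from 0) in each Control, Unloading and Reloading library, 1 point a library, with the group mean and SD as a dash and bar beside the points. Ctsl, Npc1, Lamp2 and Mcoln1 are highest in the 2 Unloading libraries, Gusb to Cd63 are highest in the 3 Reloading libraries, and Ctsc and Lamp1 are lowest there.

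Reloading against Control compares the same day with mice that were never unloaded. It shares the Reloading libraries with the comparison above. Of the 36 members 13 were higher (36.1%, against 22.1% of all tested genes) and 4 were lower (11.1%, against 21.3%). Their median log2 fold change was 0.13 against 0.01 for all tested genes. The 13 were Ctss, Ctsz, Lgmn, Hexa, Gusb, Neu1, Grn, Asah1, Laptm5, Cd63, Atp6v0d1, Atp6v1a and Atp6v1b2, each of which was also higher against Unloading. Their log2 fold changes ran from 0.39 for Ctsz to 2.56 for Gusb.

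The 4 lower members were Ctsc, Lamp1, Psap and Laptm4a. Psap, the most abundant member per kb, had 716, 822, 790 and 726 CPM in Control, 610 and 767 in Unloading and 630, 548 and 578 in Reloading. Reloading lay below Control without overlap, while Unloading reached across both. Its log2 fold change against Control was −0.38 ± 0.08 (edgeR adjusted p = 0.00182). Laptm4a had 260, 274, 268 and 265 CPM in Control, 237 and 248 in Unloading and 227, 229 and 234 in Reloading, a log2 fold change against Control of −0.21 ± 0.06 (edgeR adjusted p = 0.00692). Its groups did not overlap and ran downward from Control through Unloading to Reloading, but neither step was called. The log2 fold changes were −0.14 for Unloading against Control (edgeR adjusted p = 0.201) and −0.08 for Reloading against Unloading (edgeR adjusted p = 0.389). With library totals Ctsc was the only member called lower, and the log2 fold change of Laptm4a was 0.02. The other abundant members were not called: Ctsd had 216, 249, 255 and 237 CPM in Control, 209 and 239 in Unloading and 239, 237 and 225 in Reloading, and Gaa 240, 269, 272 and 258, then 252 and 280, then 283, 286 and 266. In both of these genes the 3 groups overlapped.

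Across the 3 comparisons, 10 members were never called: Ctsd, Ctsh, Ctsk, Gaa, Glb1, Man2b1, Naglu, Npc2, Gm2a and Atp6ap1. The 17 members that rose against Unloading had a median Control level of 5.44 CPM per kb, the 7 that fell 9.67 and the 12 not called 5.36. Over the 36 members Spearman's rho between the Control level and the log2 fold change of Reloading against Unloading was −0.349, and over all 14851 tested genes it was −0.271. Genes in these correlations share the same libraries and are not independent replicates. The members with CACGTG in their RefSeq promoter held 5 that rose against Unloading (Ctsa, Lgmn, Gla, Atp6v0d1 and Atp6v1a), 3 that fell (Ctsl, Lamp1 and Mcoln1) and 4 not called (Ctsd, Gaa, Glb1 and Naglu). Those without the word in the window held 9, 3 and 7, with Gusb, Ctss, Hexa, Grn, Laptm5 and Cd63 among the 9. The word was thus found beside genes of each response, Lamp1 with its 4 copies falling and Lgmn with 1 copy in the printed stretch rising.

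Beyond the 36 members, 123 of 124 other listed genes of lysosomal function were found and 112 were tested. In Reloading against Unloading 24 of these were higher (21.4%) and 21 lower (18.8%), close to the 18.5% and 19.0% of all tested genes. Other hydrolases held 6 higher and 3 lower of 33, other membrane proteins 5 and 2 of 21, sorting factors 4 and 2 of 16, regulators 3 and 6 of 20, and protease inhibitors 3 and 2 of 6. The other V-ATPase subunits held 3 higher and 6 lower of 16. The higher subunits were Atp6v0e, Atp6v0d2 and Atp6ap2, and the 6 lower ones were Atp6v0a1, Atp6v0e2, Atp6v1d, Atp6v1e1, Atp6v1f and Atp6v1g1, which were named after their values were seen. Subunits of the same pump thus differed in direction on the TMM scale, with Atp6v1b2 at 0.90 and Atp6v1g1 at −0.51. With library totals Atp6v1g1 was still called lower (−0.27, edgeR adjusted p = 0.0119), the other 5 lower subunits were not, and Atp6v0a1 stood at 0.056. The calls of Atp6v0a1 and Atp6v0e were lost without either Unloading library. Atp6v0a1 kept its call in only 2 of 14 alternatives and Atp6v0e in 4 of 14. Over the whole list, library totals gave 50 of 112 genes higher (44.6%) and 3 lower (2.68%), against 35.2% and 7.36% of all tested genes under that scaling. For the refits with a library left out, the share of all tested genes was not counted. On the TMM scale the lower count was 12 without Reloading 1, 13 without Unloading 1 and 11 without Unloading 2.

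**Figure D4:**
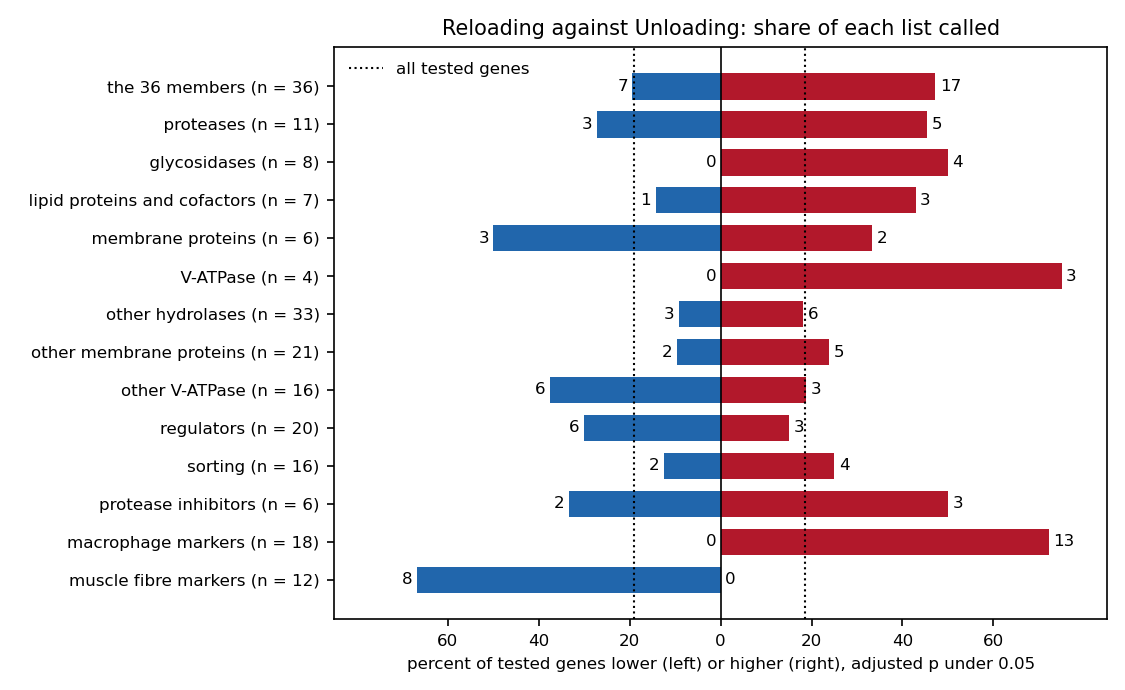
Percent of the tested genes of each list called lower (left, blue) or higher (right, red) in Reloading against Unloading, with the number called beside each bar and the number tested in parentheses. Dotted lines mark the 18.5% higher and 19.0% lower among all tested genes; the 36 members reach 47.2% and 19.4%, and the macrophage markers 72.2% and 0%.

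By the naming rule, the genes described from these lists are the MiT/TFE factors and the 2 called genes of each list with the strongest change for Reloading against Unloading. Cd68, a lysosomal membrane glycoprotein of macrophages, had 1.69 to 2.98 CPM in Control, 3.59 and 2.51 in Unloading and 42.8, 50.3 and 44.3 in Reloading. The Reloading libraries stood far above the rest, with a log2 fold change of 3.93 ± 0.17 against Unloading (edgeR adjusted p = 1.12e-09). Litaf, a zinc-binding protein of the late endosomal membrane, rose by 1.45 on the log2 scale, Atp6v0d2, a d subunit known from osteoclasts and macrophages, by 3.22 from at most 0.273 CPM outside Reloading, and Atp6ap2, the prorenin receptor, by 0.85. Of the hydrolases, Galns, which cleaves keratan sulphate, and the carboxypeptidase Scpep1 rose by 0.87 and 0.62. The sorting genes Gga2, a Golgi adaptor, and Igf2r, the mannose 6-phosphate receptor that carries hydrolases to the lysosome, rose by 0.83 and 0.43. The serpins Serpinb1a and Serpina3n rose by 1.07 and 0.90. The call of Galns was lost without Reloading 1 or Unloading 2, and that of Serpina3n without either Unloading library. Among the regulators, the kinase gene Mtor rose by 0.60, and Fnip1, a folliculin partner that acts on the Rag GTPases, fell by 0.64.

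Tfeb, which encodes the transcription factor that binds the CLEAR element, had 93.3, 106, 96.4 and 98.4 CPM in Control, 104 and 100 in Unloading and 78.5, 77.6 and 92.6 in Reloading. Reloading lay below the other groups without overlap, with Reloading 3 close to the lowest Control library. Its log2 fold change was −0.30 ± 0.09 against Unloading (edgeR adjusted p = 0.0143) and 0.05 ± 0.08 for Unloading against Control (edgeR adjusted p = 0.733). Tfe3 had 9.34, 11.6, 9.84 and 7.96 CPM in Control, 8.97 and 11.5 in Unloading and 13.0, 13.9 and 12.5 in Reloading, and Mitf 15.5, 12.5, 16.3 and 14.3, then 14.0 and 16.3, then 11.3, 13.8 and 12.9. The Reloading libraries were the highest for Tfe3, and for Mitf they overlapped Control. Neither was called against Unloading, with log2 fold changes of 0.35 ± 0.15 and −0.26 ± 0.13 (edgeR adjusted p = 0.0772 and 0.143). The call of Tfeb was lost without Reloading 2 or Unloading 1 and with library totals (log2 fold change −0.055), and Tfe3 was called higher with library totals (0.60), without Unloading 2 (0.54) and under the replicate block by title number (0.40). For Reloading against Control, Tfe3 was called higher (0.44 ± 0.13, edgeR adjusted p = 0.0127) and Tfeb lower (−0.25 ± 0.07, edgeR adjusted p = 0.0148). Mitf was not called there (−0.21 ± 0.12, edgeR adjusted p = 0.157), and the alternatives were not followed for these values. RNA levels of these factors do not measure their activity, which is known to be set by phosphorylation and nuclear entry.

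For Unloading against Control 4 of the 112 other genes were higher (3.57%, against 4.40% of all tested genes) and 1 was lower (0.893%, against 5.50%), so neither share was above that of all genes. The higher genes were Ids, iduronate sulphatase, at a log2 fold change of 0.46, Sort1, the sorting receptor sortilin, at 0.37, Cst3, the secreted cathepsin inhibitor cystatin C, at 0.32, and Ap3d1, an adaptor subunit, at 0.25, and the lower gene was Ostm1, the partner of a lysosomal chloride transporter, at −0.33. These names were chosen after their values were seen. In the refits with a library left out, the share of all tested genes was again not counted. The higher count was 1 without Unloading 1 and 2 without Control 3. Ids and Sort1 were not called without Unloading 1 and Cst3 not without Unloading 2, and Ap3d1 and Ostm1 lost the call without either Unloading library. Ap3d1 kept its call in only 6 of 15 alternatives and Ostm1 in 5 of 15. Against Control, Reloading had 31 of the 112 higher (27.7%, against 22.1% of all tested genes) and 20 lower (17.9%, against 21.3%).

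Markers of several cell types also differed between Reloading and Unloading. Of 18 tested macrophage markers, 13 were higher in Reloading than in Unloading (72.2%, against 18.5% of all tested genes). None was lower (against 19.0%), and the median log2 fold change was 1.09. None of the 20 macrophage markers considered was at 0 in all libraries, although Marco was at 0 in most of them. Their summed level was 70.3 to 89.2 CPM in Control, 74.6 and 75.0 in Unloading and 119 to 130 in Reloading, which stood above both other groups. Endothelial markers were higher for 5 of 6 (83.3%) and fibroblast markers for 4 of 8 (50%), with 2 lower (25%). Of 12 muscle fibre markers 8 were lower (66.7%) and none higher. Of 8 neutrophil markers only 2 had enough counts to be tested and neither was called, and none of 9 skin markers was called. The part of these cell types in the members' changes was not tested. In whole muscle, fewer cells of a type and less RNA per cell cannot be told apart.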

How the data were processed

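RNA-seq was performed on gastrocnemius muscle of 4 Control, 2 Unloading and 3 Reloading mice. The authors aligned reads to GRCm38.p6 with STAR (version 2.7.3a in the submitters' processing notes) and counted them per gene with featureCounts 2.0.3, unstranded, against Ensembl release 102. The deposited table holds raw counts of read pairs and exon lengths; the labels and table give read pairs, whereas the methods of the study describe single reads. The DESeq2 tables deposited by the authors hold fold changes and p-values of their own comparisons; only their gene symbols were used.

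The tests used edgeR 4.0.16 under R 4.3.3 (filterByExpr, minimum count 10 and minimum total 15; TMM; 1 quasi-likelihood fit over all 9 libraries with group as the only term; two-sided F-test; Benjamini-Hochberg adjustment over 14851 genes, threshold 0.05). The common biological coefficient of variation was 0.0927. CPM used the library totals, 9252443 to 19612101 read pairs, multiplied by the TMM factors, after which 1 read pair equals 0.0545 to 0.113 CPM. Fold changes carry a prior count, so those of low genes are understated. Intervals are 95% intervals from the fit. Members were fixed by symbol, and members and lists were chosen with earlier results of these data known. Full values were given for the 3 higher and the 3 lower called members with the largest change in each comparison, the 5 highest in Control per kb, members called in both Unloading against Control and Reloading against Unloading, Tfeb, Tfe3 and Mitf. The 2 called genes with the largest change of each other list were named, mostly by their fold change alone. Further CPM values, such as those of Lgmn, Hexa and Grn, were chosen after they were seen. Numbers at the end of the sample descriptions were taken as a possible pairing of Reloading with Control, by correlation alone. Deviations of the 3 same-numbered pairs correlated at 0.142 to 0.361. The highest value was that of Reloading 1 with Control 2, the libraries that held Krt2. Numbers in titles gave −0.201 to −0.0165 and were not taken as a pairing. Alternatives were other scaling, no filter, DESeq2 1.42.0, a robust fit, only the groups compared, replicate blocks, and leaving out libraries. The scripts were tested on simulated data. 1 listed cell type marker is not reported here.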

Additional observations from a re-analysis of the deposited data

Results flagged for a closer look

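In 3 of the 36 members a Control library lay farther from the other 3 than Dixon's 95% limit for 4 values allows. Ctsc had 36.2 CPM in Control 2 against 40.3 to 40.6 in the others, Hexa 37.3 CPM in Control 3 against 33.9 to 34.1, and Atp6v0d1 20.8 CPM in Control 4 against 23.8 to 24.3. Chance alone exceeds this limit in about 1 of 20 groups.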

How the results depend on the processing

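The groups are small, Unloading has 2 libraries, and the size of change that was called differed between genes. For Reloading against Unloading, Ctsb was called at 1.16-fold, whereas Glb1 was not called at 1.34-fold. Over 1130 alternative values of 77 fold changes, 975 kept direction and call, 142 lost the call, 4 gained it and 9 changed sign. The counts of members higher and lower in Reloading against Unloading were 11 higher without the low-count filter or without the 2 libraries with skin keratin, 1 lower with library totals, and 10 to 15 higher and 6 to 7 lower with 1 library left out. The wider genes gave 50 higher and 3 lower with library totals, 15 higher with the DESeq2 Wald test, 12 lower without the keratin libraries, and 16 to 24 higher and 11 to 15 lower with 1 library left out. The median of the members was 0.48 with library totals and 0.16 to 0.29 with 1 library left out. For Unloading against Control 0 to 3 members and 1 to 4 wider genes were higher with 1 library left out; under the replicate block by title number 2 wider genes were higher and the members' median was −0.10. The single lower wider gene became 2 with library totals or the robust fit, 0 without the filter, with DESeq2, under both replicate blocks and without the keratin libraries, and 0 to 1 with 1 library left out. Reloading against Control gave 22 higher and 1 lower members and 58 (51.8%) and 6 (5.36%) wider genes with library totals. Under that scaling 40.5% of all tested genes were higher and 10% lower, so much of the rise in these counts was shared by all genes. The members' median was 0.36 with library totals, where that of all genes was 0.25. It was 0.17 without the keratin libraries and 0.10 to 0.19 with 1 library left out. With library totals Atp6v0a1 was at 0.056 for Reloading against Unloading. Signs changed for Reloading against Control with library totals in Laptm4a (0.024), Ctsl (0.090), Lamp2 (0.14) and Mcoln1 (0.13), and in Npc1 with 1 library left out (−0.084 to 0.095, below 0 without Control 2 or Reloading 1), under the replicate block by description number (−0.00822) and without the keratin libraries (−0.15); none of these was called. Npc1 gained a call for Reloading against Control with library totals (0.27). The replicate block by description number, a possible pairing of Reloading with Control, changed no member's call in that comparison. Apart from the main fit, the share of all tested genes called was counted only with library totals. The causes of these shifts were not tested.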
